A study of Mus musculus with 80 samples.

Results

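The 6 genes described here encode the hormone FGF21, its co-receptor β-Klotho and the 4 fibroblast growth factor receptors. They were taken by symbol (Fgf21, Klb, Fgfr1, Fgfr2, Fgfr3 and Fgfr4) and make up 6 of the 32764 gene rows in the deposited count tables. Poly(A) RNA was sequenced from 2 fat depots, brown fat (BAT) and inguinal white fat (iWAT), and from liver and muscle, in WT mice, UCP1 KO mice, FGF21 KO mice and double knockouts of both genes (dKO), to ask what FGF21 does in mice that lack the uncoupling protein of brown fat. There were 5 libraries per genotype and tissue, 80 in all. FGF21 KO mice are knockouts of Fgf21, UCP1 KO mice of Ucp1, and dKO mice of both, and the deleted parts of the genes are not given in the sources used here. All were homozygous males, reared at 30 °C, moved to room temperature at an age of 10 to 12 weeks, switched from chow to high fat diet for 3 weeks and sampled 2 to 3 h after food was withdrawn. Mice of every genotype were on the C57BL/6J background. No tissue-specific driver is named for either knockout, so no comparison separates loss of a gene in the sampled tissue from its loss elsewhere. The deposited description of the series names the second gene of the dKO as FGF12. Fgf12 had 0 to 21 counts in every library and its range in dKO overlapped that of WT in all 4 tissues, whereas Fgf21 had 0 to 3 counts in every dKO library, so dKO is read here as UCP1/FGF21.

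FGF21 is an endocrine fibroblast growth factor. It binds β-Klotho, encoded by Klb, which holds it against a receptor tyrosine kinase, chiefly FGFR1 in fat, and the receptor then drives the RAS to ERK kinase cascade. Liver is the usual source in fasting, under the nuclear receptor PPARα, and amino acid or mitochondrial stress can switch the gene on in other tissues through the transcription factor ATF4. FGFR4 with β-Klotho is the liver receptor for the gut hormone FGF15, which controls bile acid synthesis.

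Fgf21 is a short gene on mouse chromosome 7, minus strand, at chr7:45613890-45615490 in RefSeq's GRCm38.p6 annotation. Its receptor genes lie elsewhere: Klb and Fgfr3 on chromosome 5, 31.6 Mb apart, Fgfr1 on chromosome 8, 57.7 Mb from Ucp1, Fgfr2 on chromosome 7, 84.5 Mb from Fgf21, and Fgfr4 on chromosome 13. The 250 bases upstream of the Fgf21 start site are shown because transcription factors named below are known to act there. Capitals mark, in order from the 5′ end, the opposite-strand match of the amino acid response element TGATGNAAN, the E-box CACGTG and the TATA box TATAAA.

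Fgf21 upstream sequence, chr7:45615491-45615740, minus strand: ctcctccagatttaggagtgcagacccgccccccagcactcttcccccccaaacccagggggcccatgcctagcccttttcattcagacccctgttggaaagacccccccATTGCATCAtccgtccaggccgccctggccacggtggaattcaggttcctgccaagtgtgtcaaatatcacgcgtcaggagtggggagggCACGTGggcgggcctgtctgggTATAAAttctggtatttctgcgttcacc

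Both strands were searched in the upstream 250 bases of 32851 RefSeq promoters, and the 3 matches in Fgf21 do not overlap. The response element letters lay at bases -140 to -132 from the start site and occurred in 3.44% of all promoters, the E-box at -50 to -45 (6.02% of promoters) and the TATA letters at -28 to -23 (12.4%). The PPAR response element (a direct repeat with 1 base between) occurred in 0.0335% of promoters and in none of the members' windows. The windows of Klb, Fgfr2, Fgfr3 and Fgfr4 held none of the 4 motifs. No Fgfr1 window was searched. A letter match describes the sequence only.

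Library totals were 28691377 to 50380696 counts, and 14407 to 17380 genes per tissue were tested. Values below are counts or CPM, counts scaled to a common library size with TMM factors so that libraries of 1 tissue can be compared. A gene was called at an adjusted p under 0.01 in edgeR's quasi-likelihood test over all genes of the tissue. Replicate numbers follow the order in which libraries were deposited and only name them. The labels do not say which libraries come from the same mouse, and p-values measure the spread between these libraries. Marker scores, the mean log2 of CPM plus 0.1 over fixed cell type genes, matched the labelled tissues: hepatocyte genes scored 11.4 to 12.0 in liver, skeletal muscle genes 13.2 to 13.5 in muscle and brown adipocyte genes 6.49 to 7.56 in BAT. Lymph node genes (8 of 8 detected) scored 6.53 to 7.71 in 9 of the 20 iWAT libraries (2 WT, 4 FGF21 KO, 1 UCP1 KO and 2 dKO) and at most 1.69 in the others. Skeletal muscle genes (10 of 10 detected) scored above 4 in 8 BAT libraries (4 dKO, 3 UCP1 KO, 1 FGF21 KO and 0 WT) and in 6 iWAT libraries. Ucp1 itself still gave 24291 to 60779 counts in BAT of UCP1 KO, against 98548 to 216085 in WT, and fell by 2.62 on the log2 scale (adjusted p = 8.98e-07, edgeR). In bulk tissue, fewer cells of a type and less RNA per cell cannot be told apart.

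In WT mice Fgf21 was highest in liver, and so were Fgfr2, Fgfr3 and Fgfr4, whereas Fgfr1 was lowest there. Levels between genes are compared per length, as CPM per kilobase of exon with TMM factors over all 80 libraries. Fgf21 was highest in liver, at 2.48 ± 0.755 CPM per kb (SD, n = 5), followed by BAT at 0.254 ± 0.0232, iWAT at 0.0976 ± 0.0690 and muscle at 0.0495 ± 0.0340. Liver exceeded BAT by 3.25 on the log2 scale and BAT exceeded iWAT by 1.39 (adjusted p = 0.00478, edgeR), a call lost without iWAT replicate 3 or 5 or BAT replicate 5 and with library totals only (0.68, where the median of all genes moved to -0.84), whereas iWAT and muscle did not differ beyond their spread (0.85, adjusted p = 0.136). Of the 6 members, 2 differed between BAT and iWAT (60.7% of all genes did), 5 between BAT and liver (67.3%), 6 between BAT and muscle (64.1%), 5 between iWAT and liver (74.9%), 4 between iWAT and muscle (74.4%) and 6 between liver and muscle (73.8%), all by the same edgeR test. With most genes differing between tissues, these counts mark nothing about the members as a group.

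Klb was shared by 3 of the 4 tissues. Its level was 10.7 ± 0.766 CPM per kb in BAT, 10.6 ± 2.55 in liver and 9.31 ± 3.25 in iWAT. No pair of these passed (log2 differences of -0.19 to 0.21, adjusted p of 0.556 to 0.960, edgeR). In iWAT the WT libraries with lymph node scores above 4 averaged 47.0 CPM and the others 80.4. These differences use TMM factors. With library totals only the median of all genes moved to -0.84 for BAT against iWAT and 1.13 for iWAT against liver. Muscle had 0.240 ± 0.213 CPM per kb and lay 5.23 to 5.44 lower on the log2 scale. Fgfr1, the receptor gene for FGF21 action in fat, ran 18.9 ± 6.61 in iWAT, 12.3 ± 1.69 in muscle, 7.68 ± 0.903 in BAT and 0.663 ± 0.192 in liver. Its neighbours in that order were iWAT and muscle, and muscle and BAT. The first pair did not pass (0.59, adjusted p = 0.0179, edgeR), but did without iWAT replicate 4 or 5 (adjusted p down to 0.000625). These are the WT libraries with lymph node scores above 4. The second pair passed (0.69 higher in muscle, adjusted p = 0.00821, edgeR) but was lost in 9 of the 10 fits that left out 1 library.

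The other receptors belonged to liver. Fgfr4 measured 11.3 ± 1.96 CPM per kb there, 0.748 ± 0.124 in muscle and at most 0.0261 ± 0.0221 in fat. Fgfr3 measured 8.90 ± 1.08 in liver, 0.871 ± 0.173 in muscle, 0.599 ± 0.0691 in iWAT and 0.540 ± 0.124 in BAT, with no difference between the fat depots (adjusted p = 0.457, edgeR). Its lower level in iWAT than in muscle (-0.57, adjusted p = 0.00239, edgeR) turned to 0.41 with library totals only, a scaling that moved the median of all genes in that comparison to 1.21. That call was also lost without muscle replicate 2 (adjusted p = 0.0109, edgeR). Fgfr2 measured 4.98 ± 0.681 in liver, 1.14 ± 0.296 in BAT, 1.07 ± 0.406 in iWAT and 0.0357 ± 0.0157 in muscle, again with no difference between the fat depots (adjusted p = 0.707).

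As a share of the 4 receptor transcripts per length in WT, Fgfr1 made up 82.0 ± 1.72% in BAT, 91.3 ± 1.60% in iWAT and 88.0 ± 1.04% in muscle (SD, n = 5), but 2.57 ± 0.747% in liver. In liver Fgfr4 held 43.6 ± 4.64%, Fgfr3 34.4 ± 3.65% and Fgfr2 19.4 ± 3.76%. That order depended on the length used: with each gene's longest transcript the liver shares were 30.1%, 37.5% and 29.2%. Counts per gene do not separate the receptor splice forms, which differ in whether they pair with β-Klotho.

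**Figure D1:**
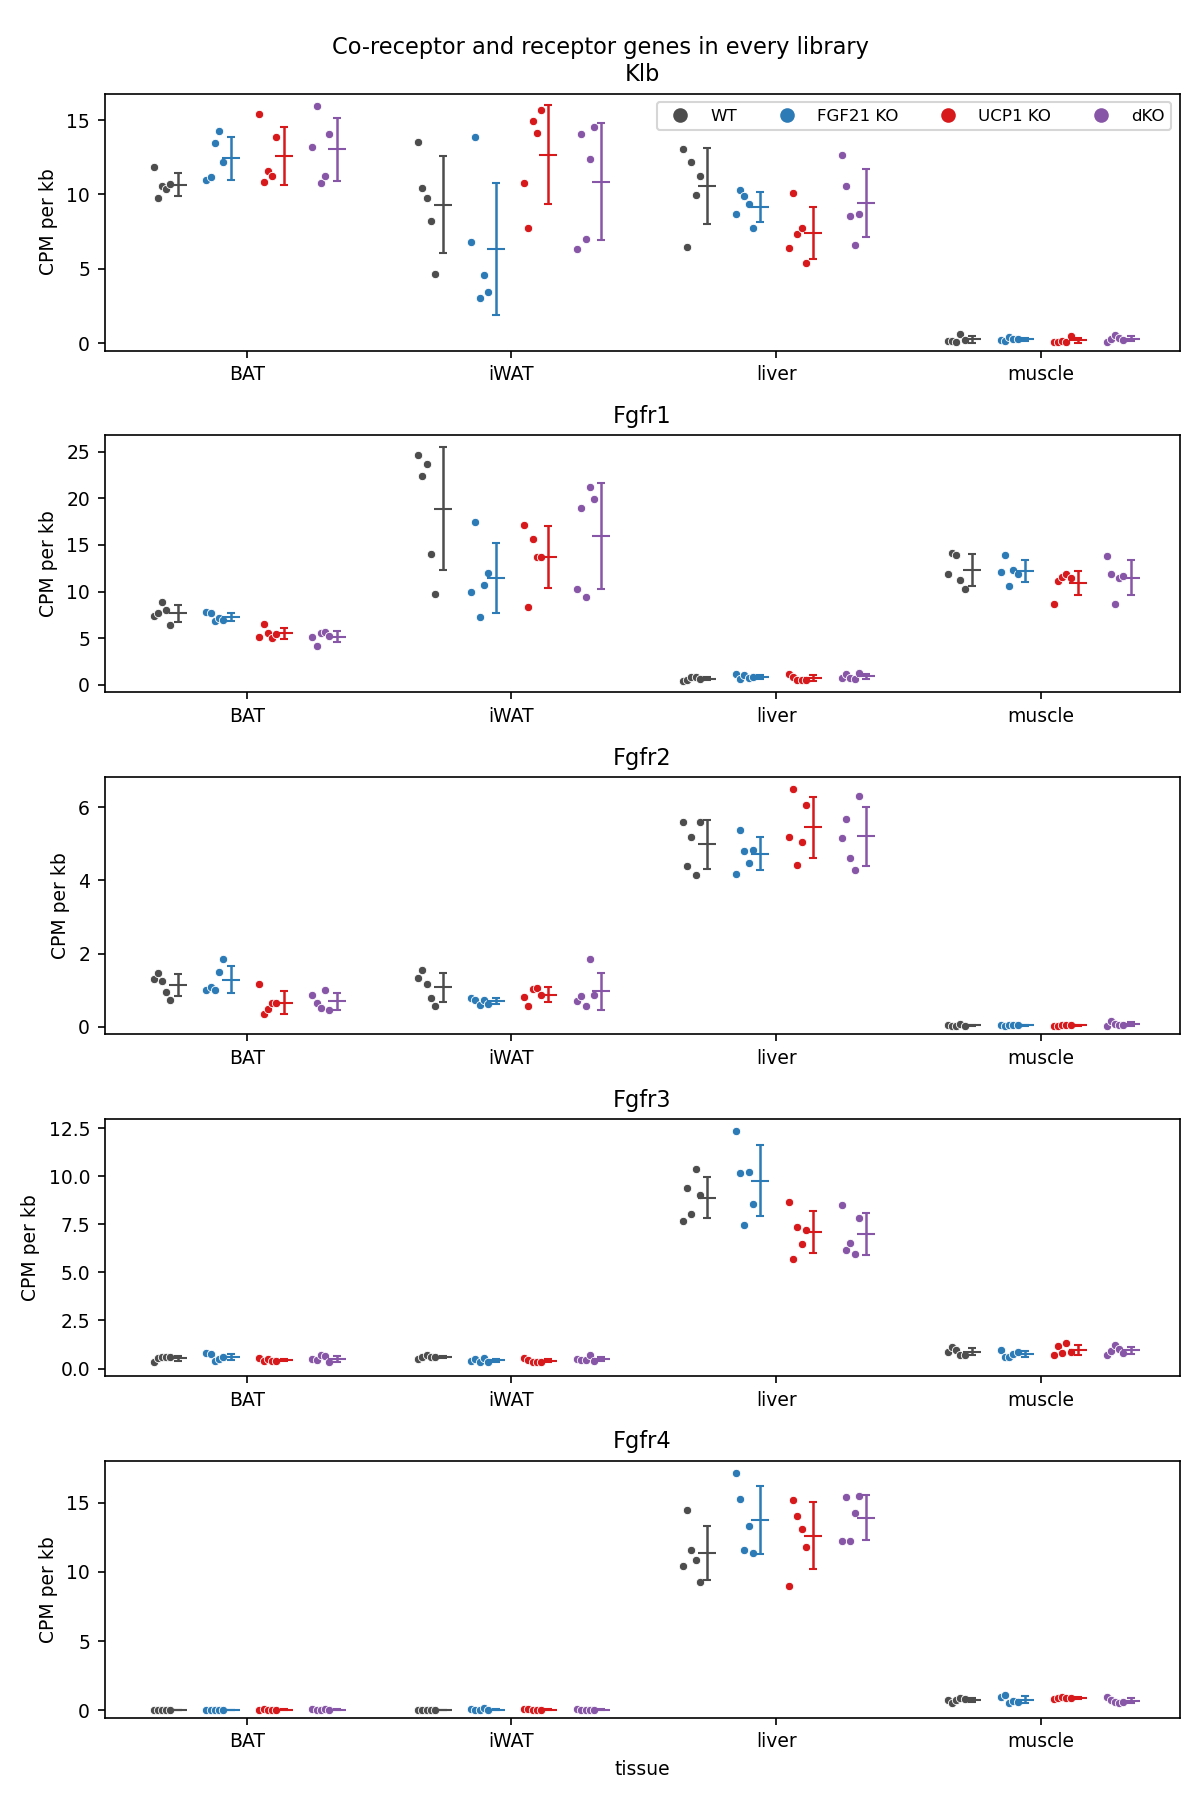
CPM per kilobase of exon (TMM over 80 libraries) of Klb and the 4 receptor genes, by tissue and genotype. Points are libraries and bars the mean with SD of 5. Klb is near 10 in BAT, iWAT and liver of WT and 0.240 in muscle, Fgfr1 is lowest in liver (0.663 in WT), and Fgfr4 is highest there (11.3 in WT).

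Loss of UCP1 raised Fgf21 in BAT. The 5 WT libraries had 8, 7, 7, 7 and 10 Fgf21 counts, and the 5 UCP1 KO libraries had 353, 968, 1728, 1489 and 1094. In CPM these are 0.250 ± 0.0232 in WT and 24.3 ± 9.50 in UCP1 KO (SD, n = 5), with UCP1 KO replicate 1 the lowest of its group at 9.47 and no overlap between the groups. The rise was 97.3-fold, or 6.58 on the log2 scale (SE 0.361, adjusted p = 1.15e-09, edgeR), the second smallest p of the 15729 genes tested in BAT. It held at 6.41 to 6.79 with each library left out. No BAT library outside UCP1 KO exceeded 10 Fgf21 counts. The gene therefore passed the filter on low counts (highest count above 15, sum above 75) only through UCP1 KO. Fgf21 and Fgfr1 were the 2 of 5 tested members called in this comparison, 1 in each direction, where 25.2% of all genes were called, 13.8% higher and 11.4% lower.

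Knockout of Fgf21 was seen in the same gene. BAT of dKO mice had 1, 0, 3, 1 and 1 counts, and BAT of FGF21 KO mice 2, 0, 0, 0 and 1. UCP1 KO therefore exceeded dKO at least 339.7-fold (adjusted p = 1.27e-10, the smallest of all genes, edgeR), taking 3 counts per library as the floor. Fgf21 was the 1 BAT member called for UCP1 KO against dKO, among 0.0636% of all genes called, every one of them higher in UCP1 KO. Its call follows from the deletion in dKO and is not read as a result. FGF21 KO lay at least 2.79-fold below WT in BAT, which did not pass (adjusted p = 0.0875), and 0 members were called (1 at an unadjusted p under 0.05, 0 by DESeq2, 0.00% of all genes by edgeR). The Fgf21 test in this comparison rested on at most 10 counts per library. Between dKO and FGF21 KO both groups were at or under the floor.

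Whether the effect of losing UCP1 depends on Fgf21 was tested by the interaction, the UCP1 KO minus WT change less the dKO minus FGF21 KO change. In BAT it called 0 members with edgeR, where it called 0.00% of all genes (845 at an unadjusted p under 0.05). The 1 member at an unadjusted p under 0.05 was Fgf21 itself, whose interaction is fixed by its deletion and is not read as a result, since FGF21 KO and dKO libraries held 0 to 3 counts.

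Skeletal muscle genes moved with the BAT genotypes. Their score was 1.16 to 3.21 in WT, 2.43, 9.60, 6.18, 5.11 and 2.65 in UCP1 KO replicates 1 to 5, and 8.35, 2.85, 8.56, 8.52 and 4.75 in dKO. Muscle itself held 0 to 10 Fgf21 counts per library in all 4 genotypes. With the score as a covariate the BAT rise of Fgf21 was 6.22, and among libraries scoring at most 4, of which 2 were UCP1 KO, it was 6.06 (adjusted p = 3.87e-06, edgeR). Macrophage genes (5 of 5 detected) moved with the genotypes too, with scores of 4.20 to 5.73 in UCP1 KO against 3.44 to 3.72 in WT, without overlap, and 3.33 to 4.10 in FGF21 KO and 3.84 to 4.88 in dKO. Their part in the BAT results was not tested. Brown adipocyte genes scored 6.49 to 7.25 in WT BAT and 6.85 to 7.50 in UCP1 KO BAT. With the skeletal muscle score as covariate, edgeR called 3140 genes for UCP1 KO against WT and 1159 for dKO against FGF21 KO. The fit reported called 3965 and 2129. Counts of gene lists in BAT given below come from the fit reported unless stated.

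**Figure D2:**
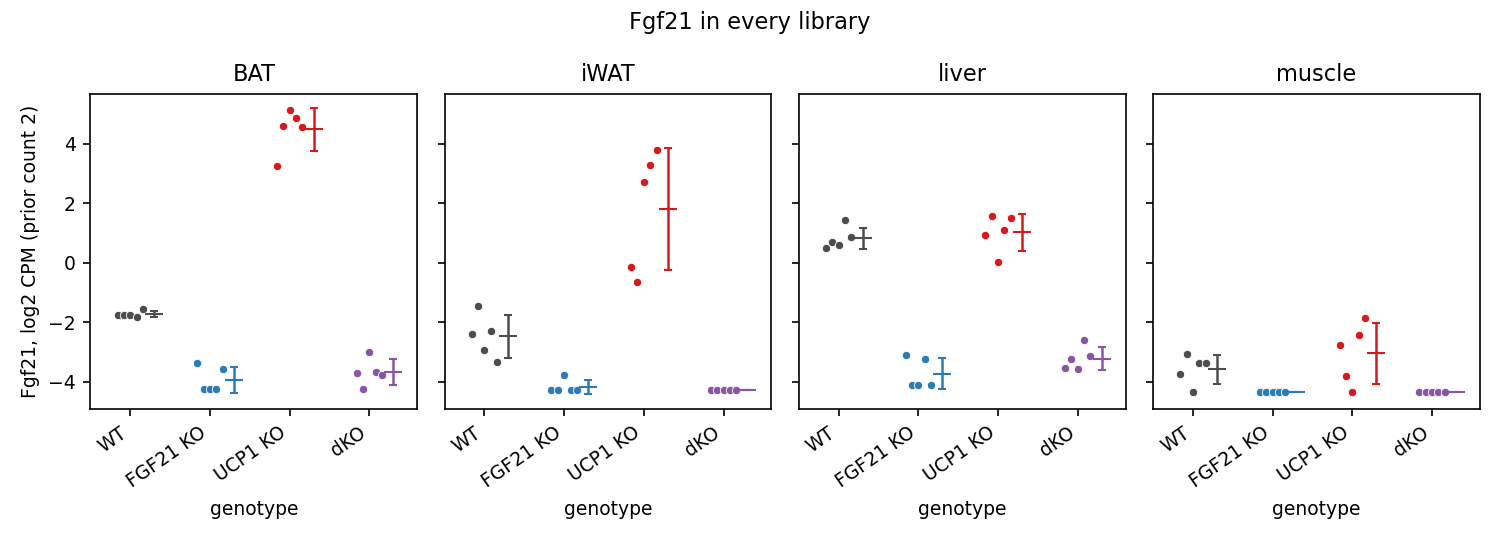
Fgf21 as log2 CPM (prior count 2) in each genotype, 1 panel per tissue. Points are libraries and bars the mean with SD of 5. The UCP1 KO libraries stand above WT in BAT (353 to 1728 counts against 7 to 10) and in iWAT (23 to 385 against 2 to 11), and overlap WT in liver, while FGF21 KO and dKO libraries hold at most 3 counts.

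In iWAT, Fgf21 also rose with loss of UCP1, from a lower start and with more spread. WT libraries had 5, 11, 3, 7 and 2 counts, UCP1 KO libraries 28, 23, 176, 286 and 385, all dKO libraries 0 and the FGF21 KO libraries 0, 0, 1, 0 and 0. In CPM, WT had 0.147 ± 0.104 and UCP1 KO 6.31 ± 5.74 (SD, n = 5), and replicates 1 and 2 of UCP1 KO (0.861 and 0.594 CPM) stood below the other 3 (6.50 to 14.0 CPM) but above every WT library. The rise was 42.8-fold, or 5.40 on the log2 scale (SE 0.904, adjusted p = 0.00688, edgeR). No iWAT library outside UCP1 KO exceeded 11 counts, so here too the gene passed the filter on low counts only through UCP1 KO.

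The iWAT call was near the threshold. It was lost in 8 of 10 fits that left out 1 library (each of the 5 WT libraries and UCP1 KO replicates 3, 4 and 5), with adjusted p up to 0.0310 (edgeR). The fit with only the compared genotypes lost it too. The low UCP1 KO replicate 2 was also the one with a lymph node score above 4 (7.34), and replicate 1 had a skeletal muscle score of 10.4. The part of other tissue in these values was not tested. Among libraries with a lymph node score of at most 4 the rise was 5.39 (adjusted p = 0.0145), and among those with a skeletal muscle score of at most 4 it was 4.94 (adjusted p = 0.0739, edgeR), in a fit that called 0 of all genes. Brown adipocyte genes (9 of 9 detected) scored 4.21 to 5.92 in UCP1 KO iWAT against 1.93 to 2.80 in WT, 1.23 to 2.47 in FGF21 KO and 1.86 to 3.36 in dKO. Their part in the rise of Fgf21 was not tested.

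Fgf21 was the 1 member of 6 called between UCP1 KO and WT in iWAT, where 0.610% of all genes were called. It was also the 1 member called between UCP1 KO and dKO (at least 87.5-fold, adjusted p = 0.00147, edgeR, 0.466% of all genes). That call follows from the deletion of Fgf21 in dKO and is not read as a result. With only the compared genotypes, or at a skeletal muscle score of at most 4 (0 of all genes called), Fgf21 was not called. This second call was lost among libraries with a lymph node score of at most 4 (adjusted p = 0.0123). Between dKO and FGF21 KO 0 members were called by edgeR (0 at an unadjusted p under 0.05, 0 by DESeq2), beside 0.0115% of all genes, and between FGF21 KO and WT 0 (3 at an unadjusted p under 0.05, 0 by DESeq2), beside 0.00575%. The iWAT interaction called 0 members and 0.00% of all genes with edgeR (3 members, Fgf21 among them, and 1734 genes at an unadjusted p under 0.05, 0 members by DESeq2). As in BAT, the interaction of Fgf21 is fixed by its deletion and is not read as a result.

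Liver, which had the highest WT level, did not follow the fat depots. WT libraries had 51, 53, 51, 107 and 57 Fgf21 counts and UCP1 KO libraries 57, 81, 29, 62 and 84. The CPM were 1.76 ± 0.509 and 2.12 ± 0.792 (SD, n = 5), the ranges overlapped, and the difference of 0.26 on the log2 scale (SE 0.297, adjusted p = 0.803, edgeR) was smaller than its error. FGF21 KO and dKO libraries held 0 to 3 counts. FGF21 KO lay at least 22.15-fold below WT (adjusted p = 1.69e-06) and UCP1 KO at least 24.9-fold above dKO (adjusted p = 3.03e-06). These made 1 of 6 members called in each comparison, beside 0.229% and 0.00694% of all genes. Both calls follow from the deletion of Fgf21 and are not read as results.

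The other liver comparisons gave 0 members by edgeR and 0 by DESeq2. These were UCP1 KO against WT (2 members at an unadjusted p under 0.05, 0.0694% of all genes called), dKO against FGF21 KO (1 member, 0.00694%) and the interaction (1 member, 0.00%, with 743 genes at an unadjusted p under 0.05).

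Muscle held little Fgf21. Its counts were 1, 3, 0, 2 and 2 in WT, 4, 1, 0, 6 and 10 in UCP1 KO and 0 in every FGF21 KO and dKO library, too few to pass the filter on low counts. The exact two-sided permutation test of UCP1 KO against WT gave p = 0.333, where the smallest p that 5 libraries against 5 allow is 0.00794. Of the 5 members tested in muscle, 0 were called by edgeR in any comparison (0 at an unadjusted p under 0.05, 0 by DESeq2). The share of all genes called was 0.0265% for UCP1 KO against WT, 0.0595% for dKO against FGF21 KO, 0.00% for UCP1 KO against dKO (1774 genes at an unadjusted p under 0.05), 0.00662% for FGF21 KO against WT and 0.00% for the interaction (1131 genes).

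The UCP1 KO effect on Fgf21 differed between fat and liver. It was 6.35 larger on the log2 scale in BAT than in liver (adjusted p = 1.94e-08), 5.18 larger in iWAT than in liver (adjusted p = 2.65e-06) and 5.36 larger in BAT than in muscle (adjusted p = 0.00296, edgeR over 80 libraries). Its difference between BAT and iWAT was 1.16 (adjusted p = 0.351), that between iWAT and muscle 4.19 (adjusted p = 0.0344) and that between liver and muscle -0.99 (adjusted p = 1.00), none of which passed. The shares of all genes whose effect differed were 5.72% for BAT and liver, 3.20% for iWAT and liver, 4.50% for BAT and muscle, 11.0% for BAT and iWAT, 2.03% for iWAT and muscle and 0.0114% for liver and muscle. No other member's effect passed in any pair, the smallest adjusted p being 0.116 for Fgfr2 in BAT and liver. Per length in UCP1 KO mice, Fgf21 stood at 24.95 ± 9.72 CPM per kb in BAT, 4.29 ± 3.92 in iWAT, 2.96 ± 1.12 in liver and 0.126 ± 0.120 in muscle, so that BAT stood first, where liver did in WT. The BAT libraries (9.69 to 36.0) lay above all others, and the iWAT and liver libraries overlapped. This order is a description, with no test.

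Klb, the co-receptor gene, passed no genotype test in any tissue. In BAT the WT libraries ran from 46.1 to 56.1 CPM and the UCP1 KO libraries from 50.7 to 72.0, with means of 50.2 ± 3.69 and 58.8 ± 9.15 (SD, n = 5). The difference was 0.23 on the log2 scale (SE 0.114, adjusted p = 0.116, edgeR). With library totals only, which moved the median of all genes in that comparison to 0.31, Klb passed at 0.53 (adjusted p = 0.00170), 0.22 above that median.

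In liver, Klb was 44.4, 21.9, 41.6, 33.2 and 39.2 CPM in WT and 22.4, 34.4, 24.8, 26.7 and 18.3 in UCP1 KO. The UCP1 KO mean was lower by 0.51 on the log2 scale (SE 0.185) with ranges that overlapped, and the adjusted p was 0.301. In muscle, Klb had 10 to 93 counts. The largest, in WT replicate 4, came with 1176 Ucp1 counts against a group median of 51, and UCP1 KO replicate 5 (80 Klb counts) and dKO replicate 3 (84) were likewise the libraries with the most Ucp1 in their groups (465 and 389). In FGF21 KO the library with the most Ucp1, replicate 5 at 827 counts, had 40 Klb counts in a group range of 22 to 61. The part of fat in those muscle values was not tested.

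Fgfr1 fell in BAT with loss of UCP1, with and without Fgf21. The CPM were 76.1, 79.4, 90.4, 81.3 and 65.3 in WT and 51.8, 66.0, 56.3, 50.9 and 55.4 in UCP1 KO, and 79.3, 78.4, 70.0, 73.5 and 71.1 in FGF21 KO and 52.5, 42.4, 56.5, 58.4 and 53.1 in dKO. WT and UCP1 KO overlapped by 1 library, UCP1 KO replicate 2 exceeding WT replicate 5, and FGF21 KO and dKO did not overlap. UCP1 KO was 1.40-fold lower than WT (-0.48 on the log2 scale, SE 0.0932, adjusted p = 0.000542, edgeR) and stayed called with each library left out (-0.55 to -0.43).

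Fgfr1 was 1.42-fold lower in dKO than in FGF21 KO (-0.50, SE 0.0933, adjusted p = 0.000797, edgeR) and was the 1 of 5 members called there, beside 13.5% of all genes (6.74% higher and 6.80% lower). The interaction was 0.02 (SE 0.132, adjusted p = 0.998). Both calls were lost with library totals only (-0.18 and -0.28), where the medians of all genes lay at 0.31 and 0.23, so that relative to the median Fgfr1 changed by -0.49 and -0.51. Both stood when the skeletal muscle score entered as covariate (-0.62 and -0.69, adjusted p = 4.42e-05 and 9.98e-05, edgeR). Among libraries scoring at most 4 the first was -0.53 (adjusted p = 0.00486), and the second rested on 1 dKO library, the lowest of its group.

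**Figure D3:**
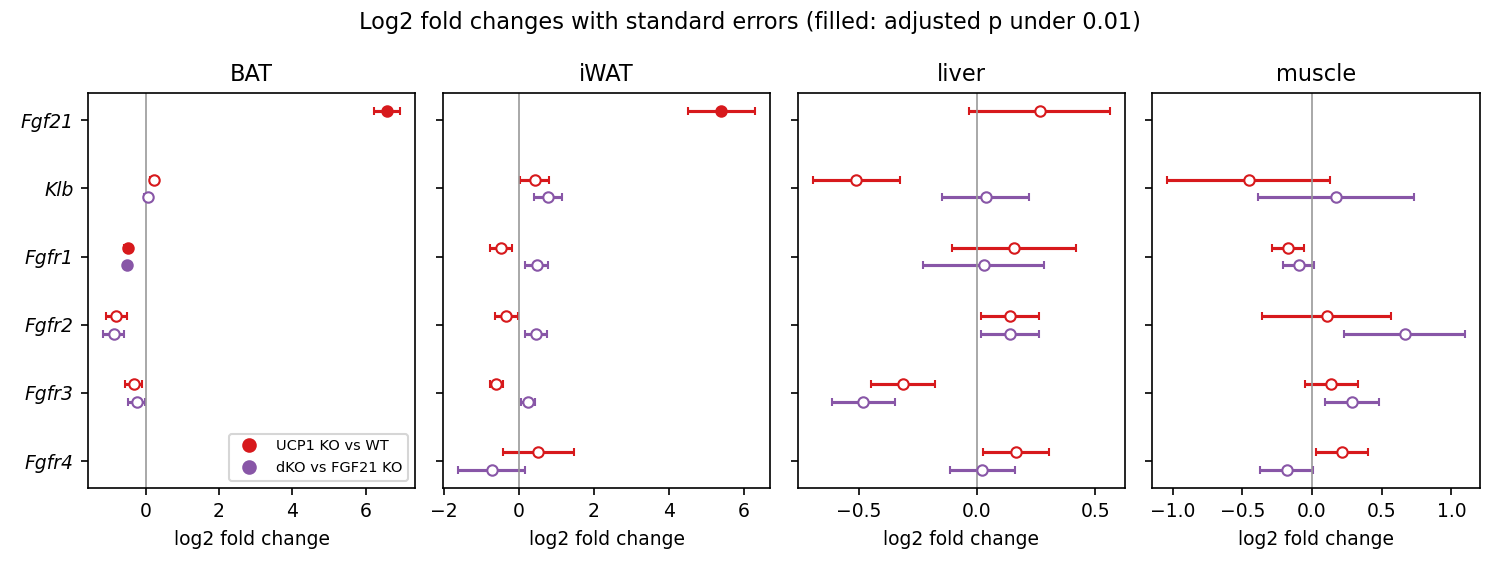
Log2 fold change with SE of each tested member in each tissue, for UCP1 KO against WT and dKO against FGF21 KO (edgeR). Filled points passed an adjusted p of 0.01: Fgf21 in BAT (6.58) and iWAT (5.40) for UCP1 KO against WT, and Fgfr1 in BAT for both comparisons (-0.48 and -0.50). Fgf21 is left out for dKO against FGF21 KO, where both groups are at or under the floor.

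In iWAT, Klb and Fgfr1 followed the lymph node score within genotypes. The Klb means of libraries at or under a score of 4 and over it were 80.4 and 47.0 CPM in WT, 99.5 and 32.2 in FGF21 KO, 97.9 and 55.1 in UCP1 KO, and 98.0 and 48.1 in dKO. For Fgfr1 they were 366 and 189, 271 and 157, 231 and 129, and 312 and 154 CPM. Within every genotype each library over 4 lay below each library at or under 4 for both genes, and the mean of the adipocyte gene Adipoq was lower in the former in every genotype, with overlap in UCP1 KO. Fgfr4 went the other way, with WT means of 0.0557 and 0.286 CPM on at most 41 counts. Fgfr3 in WT was 6.72 and 6.94 CPM.

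This split bore on the iWAT tests. Klb in UCP1 KO (89.3 ± 23.4 CPM) differed from WT (67.1 ± 22.8) by 0.41 (adjusted p = 0.734), and Fgfr1 (210.2 ± 51.0 against 295 ± 101) by -0.49 (adjusted p = 0.508, edgeR). With lymph node score added as covariate Fgfr1 was lower by 0.69 and passed (adjusted p = 0.00237), and among libraries at or under 4 the difference was -0.69 too (adjusted p = 0.00368). Over all genes these fits called 862 and 649 genes, against 106 in the fit reported. For FGF21 KO against WT, Fgfr1 lay at -0.72 (adjusted p = 0.262) and at -0.34 (adjusted p = 0.183) with the covariate.

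**Figure D4:**
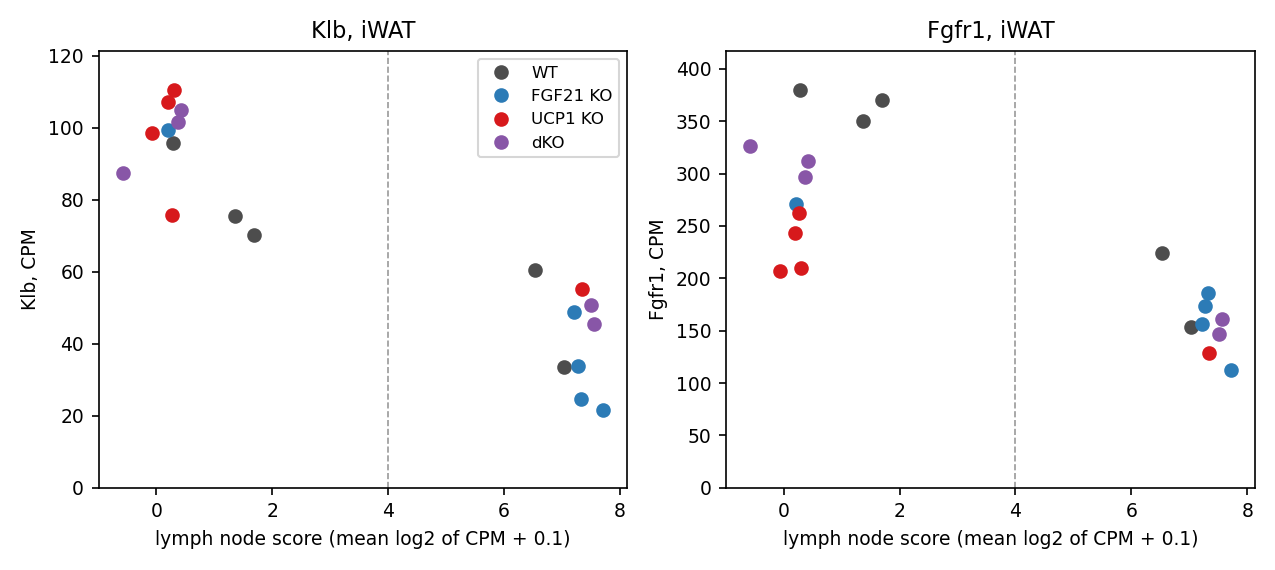
CPM of Klb and Fgfr1 in the 20 iWAT libraries against the lymph node score, coloured by genotype, with a dashed line at 4. The 9 libraries to the right of the line (scores of 6.53 to 7.71) lie below the other libraries of their genotype in both genes.

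Fgfr2, the receptor for keratinocyte growth factors in one of its splice forms, was lower in BAT without UCP1 but did not pass. WT had 14.0, 15.8, 13.2, 10.2 and 7.82 CPM and UCP1 KO 12.3, 3.75, 5.11, 6.99 and 6.83, with overlap, a difference of -0.80 (SE 0.289) and an adjusted p of 0.0332. Against FGF21 KO (10.7 to 19.6 CPM), dKO (4.99 to 10.8 CPM) differed by -0.87 (SE 0.288, adjusted p = 0.0299, edgeR). UCP1 KO replicate 1, at 12.3 CPM, decided the first: without it the difference was -1.10 and passed (adjusted p = 0.00293).

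Fgfr3 in iWAT was 5.68, 6.55, 7.93, 7.14 and 6.73 CPM in WT and 5.97, 4.73, 3.91, 3.94 and 3.77 in UCP1 KO. All UCP1 KO libraries but replicate 1 lay below all WT libraries, and the difference of -0.61 (SE 0.179) had an adjusted p of 0.0813. In liver, its WT mean was 47.5 ± 5.32 CPM and its UCP1 KO mean 38.3 ± 6.33 (-0.31, adjusted p = 0.410), and dKO (37.4) lay below FGF21 KO (52.1) by 0.48 on the log2 scale (adjusted p = 0.477, edgeR). In BAT its difference between UCP1 KO and WT was -0.33 (adjusted p = 0.257).

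Fgfr4 was a liver gene in all genotypes. Its liver CPM were 30.0 ± 4.99 in WT and 33.6 ± 6.08 in UCP1 KO (0.17 on the log2 scale, adjusted p = 0.717, edgeR), and those of Fgfr2 were 38.5 ± 5.79 and 42.4 ± 6.35 (0.14, adjusted p = 0.732). In BAT, Fgfr4 had 0 to 14 counts and failed the filter. Its 4 highest BAT libraries, UCP1 KO replicate 2 (14 counts) and dKO replicates 1, 3 and 4 (10, 9 and 10 counts), were those with the highest skeletal muscle scores (8.35 to 9.60), and the part of muscle in these counts was not tested. In muscle the WT level was 2.17 ± 0.355 CPM and the UCP1 KO level 2.51 ± 0.158 (0.22, adjusted p = 0.750).

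The genes of the pathway around FGF21 were taken as 6 lists. Feedback and response genes of ERK signalling (16 genes, which hold the cascade down or are switched on by it) had 6 members higher and 0 lower in BAT of UCP1 KO against WT, where 13.8% of all genes were higher, with a median log2 change of 0.76 beside 0.01 over all genes. The macrophage score was higher in the same UCP1 KO libraries, as given above, and overlapped between UCP1 KO and dKO. Spred1, an inhibitor of RAS signalling, rose by 1.23 (adjusted p = 2.19e-06), the ERK-responsive transcription factor genes Etv5 and Etv4 by 1.33 (0.000301) and 2.66 (0.000409, on 1 to 5 counts in WT and 3 to 31 in UCP1 KO, with overlap), and the MAP kinase phosphatase gene Dusp4 by 1.30 (0.00133, edgeR). Without Fgf21 the list did not pass in any gene: dKO against FGF21 KO had 0 called by edgeR (6 at an unadjusted p under 0.05, 2 by DESeq2), beside 13.5% of all genes, and a median of 0.23.

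Compared directly, UCP1 KO and dKO BAT differed in 4 of the 16 feedback genes, all higher in UCP1 KO, among 10 genes called of 15729. Dusp4 was 62.6, 56.8, 96.4, 97.1 and 78.0 CPM in UCP1 KO and 18.7, 23.4, 7.50, 25.5 and 12.5 in dKO, while WT ran from 17.5 to 38.3 and FGF21 KO from 13.6 to 26.5. The UCP1 KO libraries lay above every other BAT library, and the difference from dKO was 2.16 (adjusted p = 0.00240, edgeR).

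Spred1 was 36.6 to 63.9 CPM in UCP1 KO and 21.1 to 28.8 in dKO (0.94, adjusted p = 0.00241). Spred2, of the same family, was 26.2 to 45.4 and 18.6 to 22.6 CPM (0.83, adjusted p = 0.00746), and Etv5 3.35 to 12.7 and 2.06 to 2.61 CPM (1.54, adjusted p = 0.00746, edgeR), with no overlap in any of the 3. The count of 4 fell to between 0 and 2 when UCP1 KO replicate 4 or any 1 dKO library was left out, with dKO replicate 1 taking it to 0. It was also 0 when the fit held only the compared genotypes, and 2 when the skeletal muscle score entered as covariate. At a score of at most 4 it was 0 too, but only 2 UCP1 KO libraries and 1 dKO library, assumed to vary like the others, were left. The interaction called 0 of the 16 genes by edgeR (8 at an unadjusted p under 0.05, 0 by DESeq2).

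In iWAT the same list had 0 called for UCP1 KO against WT (3 at an unadjusted p under 0.05, 1 by DESeq2), beside 0.610% of all genes. Between UCP1 KO and dKO, where 0.466% of all genes were called, Dusp4 was higher by 1.50 (adjusted p = 0.00969, edgeR). Its ranges overlapped, with UCP1 KO replicate 2 at 12.9 CPM and dKO up to 14.4. The early response gene Egr1 was higher in dKO (-2.37 for UCP1 KO against dKO, adjusted p = 0.00262, edgeR). The brown adipocyte score was 4.21 to 5.92 in these UCP1 KO libraries and 1.86 to 3.36 in dKO, and its part was not tested. Egr1 was 57.1 to 133 CPM in dKO, above every library of UCP1 KO (9.78 to 22.9), WT (13.8 to 43.2) and FGF21 KO (20.5 to 43.7). The count of 2 fell to 0 without UCP1 KO replicate 3 or without dKO replicate 2, and to 1 without any other of the compared libraries but UCP1 KO replicate 2.

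**Figure D5:**
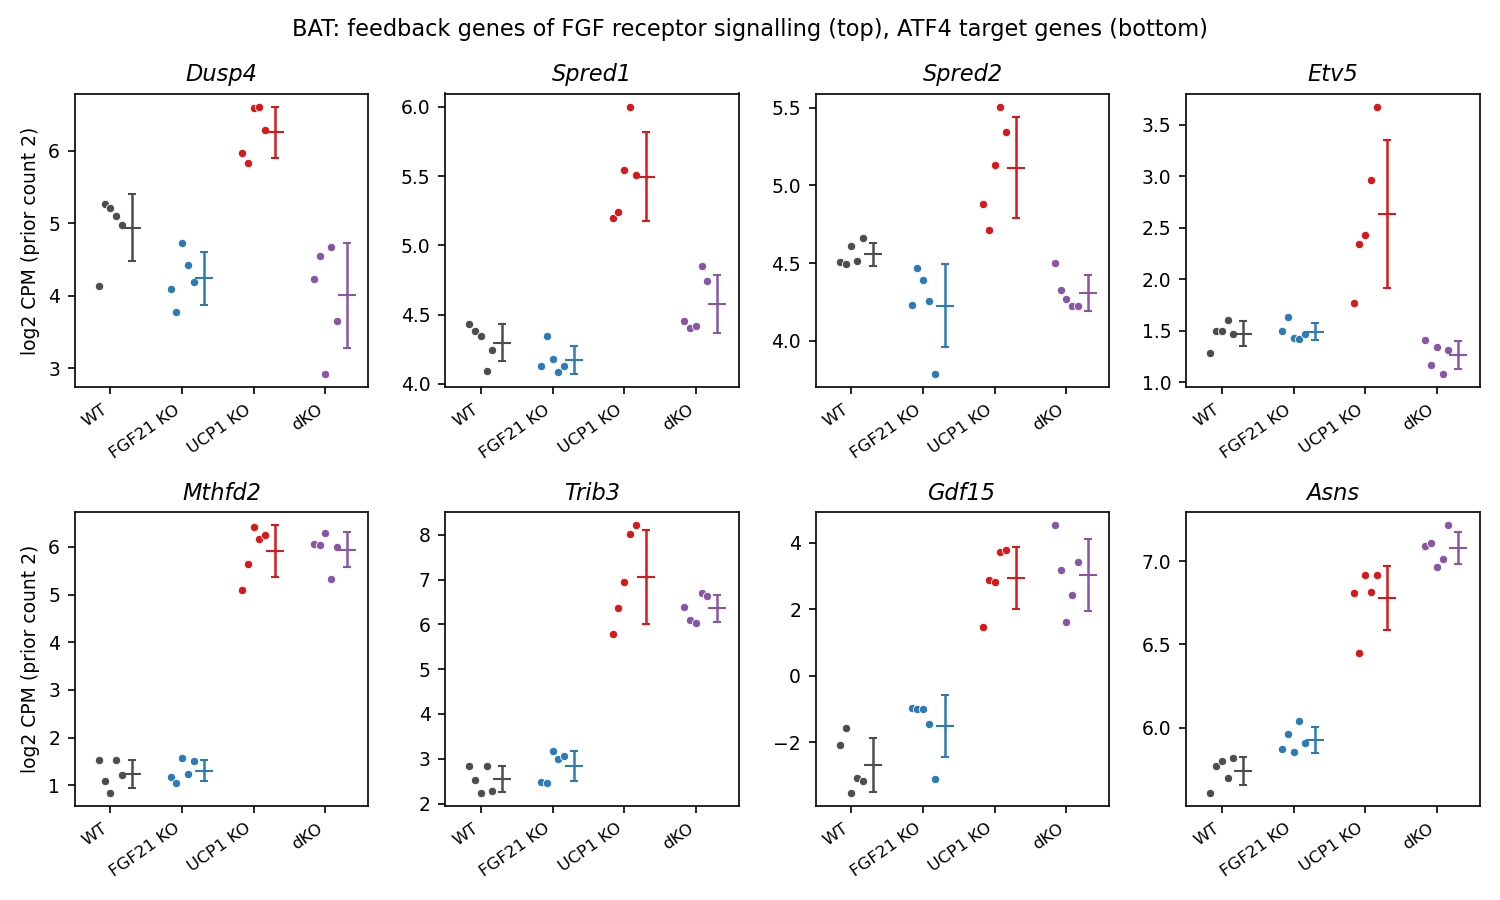
Log2 CPM (prior count 2) of 4 feedback genes (Dusp4, Spred1, Spred2 and Etv5, top) and 4 targets of ATF4 (Mthfd2, Trib3, Gdf15 and Asns, bottom) in BAT by genotype. Points are libraries and bars the mean with SD of 5. In each feedback gene every UCP1 KO library lies above every library of the other 3 genotypes, and in each ATF4 target every UCP1 KO and dKO library lies above every WT and FGF21 KO library.

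Some genes known to sit upstream of Fgf21 changed in BAT with and without Fgf21. Of 14 transcription factors acting on it, 4 were higher and 2 lower in UCP1 KO against WT (median -0.25, beside 13.8% and 11.4% of all genes), and 3 were higher and 1 lower in dKO against FGF21 KO (median -0.06, beside 6.74% and 6.80%, 1 to 5 called with each library left out). Atf4 rose by 1.24 (adjusted p = 1.18e-06) and 0.83 in these comparisons, Ddit3, which encodes the stress factor CHOP, by 2.67 (4.12e-05) and 1.52 (0.00559), and Rxra, the partner of PPARα, fell by 0.66 (0.000232) and 0.52 (0.00314). The second Ddit3 call was lost in 6 of 10 fits that left out 1 library, and the second Rxra call without FGF21 KO replicate 1 or 2. Thrb, a thyroid hormone receptor gene, fell by 1.38 (0.000234, edgeR) in UCP1 KO against WT. In iWAT, Ppara itself was 11.7 to 24.7 CPM in WT and 70.1 to 376 in UCP1 KO (3.38, adjusted p = 0.00382), without overlap, and exceeded dKO by 3.43 (adjusted p = 0.00410, edgeR). The first call was lost in 6 and the second in 7 of the 10 fits that left out 1 library (adjusted p up to 0.0194 and 0.0193), among them those without UCP1 KO replicate 4 or 5. The brown adipocyte score was higher in these UCP1 KO libraries (4.21 to 5.92 against 1.93 to 2.80 in WT and 1.86 to 3.36 in dKO), and its part was not tested.

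Of 12 other targets of ATF4, 9 were higher and 0 lower in BAT of UCP1 KO against WT (median 1.96, 13.8% of all genes higher), and in dKO against FGF21 KO 8 were higher and 0 lower (median 1.65, 6.74%). The mitochondrial folate enzyme gene Mthfd2 was 1.75 to 2.86 CPM in WT, 34.4 to 85.4 in UCP1 KO, 2.01 to 2.90 in FGF21 KO and 40.2 to 77.8 in dKO. It had the smallest p of all genes in both comparisons (4.75, adjusted p = 9.47e-10, and 4.68, adjusted p = 1.07e-09, edgeR).

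The pseudokinase gene Trib3 rose by 4.79 in UCP1 KO against WT and 3.54 in dKO against FGF21 KO, Gdf15, a second stress hormone gene, by 6.12 and 4.85, and the asparagine synthetase gene Asns by 1.05 and 1.16. Between UCP1 KO and dKO 0 of the 12 were called in BAT by edgeR (3 at an unadjusted p under 0.05, 0 by DESeq2, median 0.05), beside 0.0636% of all genes. In iWAT 0 of the 12 were called in any comparison by edgeR (1 to 5 at an unadjusted p under 0.05, at most 2 by DESeq2), beside 0.00% to 0.610% of all genes, with medians of 0.60 for UCP1 KO against WT and 0.51 for dKO against FGF21 KO.

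Among the other 21 FGF ligand genes, 10 were tested in BAT, and UCP1 KO against WT had 3 higher and 3 lower (median 0.40), beside 13.8% and 11.4% of all genes. Fgf9 rose by 2.08 (adjusted p = 0.000149, edgeR) from a mean of 1.32 to 5.60 CPM, with overlap, and Fgf1 by 0.96 (0.00182) from 33.4 to 64.7 CPM. Fgf14, which encodes an intracellular FGF that acts on sodium channels, fell by 3.69 (3.72e-06, edgeR) from 2.55 to 0.200 CPM. Fgf16 fell by 2.62 (4.34e-05, edgeR) from a mean of 0.79 to 0.13 CPM. In dKO against FGF21 KO, Fgf9 (2.25) and Fgf18 (1.30, lost without FGF21 KO replicate 1) were higher and Fgf14 (-2.23) lower. The Fgf18 means were 0.724 CPM in dKO and 0.295 in FGF21 KO. Of 9 co-receptor, decoy and binding protein genes, 0 were called by edgeR in any tissue and comparison (at most 2 at an unadjusted p under 0.05 and at most 1 by DESeq2), with 5 to 9 of them tested per tissue and 0.00% to 25.2% of all genes called. Of 21 genes relaying the signal, 2 were higher and 1 lower in BAT of UCP1 KO against WT and 1 higher in dKO against FGF21 KO by edgeR, beside 25.2% and 13.5% of all genes called. Rps6ka1, a kinase gene downstream of ERK, rose in BAT by 1.98 and 1.46 in the UCP1 KO and dKO comparisons and the ubiquitin ligase gene Cbl by 1.69 in the first. Cbl was 6.93 to 7.65 CPM in UCP1 KO replicates 2, 3 and 4, the libraries with skeletal muscle scores over 4, and 2.31 and 1.40 CPM in replicates 1 and 5, beside 1.16 to 2.20 in WT. The part of muscle in it was not tested. Frs2, the receptors' docking protein gene, fell by 0.23 in UCP1 KO against WT (adjusted p = 0.00971, edgeR), a call lost in 8 of 10 fits that left out 1 library (adjusted p up to 0.0280), and lay at 0.07 with library totals only. In liver and muscle edgeR called 0 genes of the 6 lists in any comparison, and DESeq2 at most 1 of a list.

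The genes whose pattern was most like that of each member were named by Pearson's r of mean log2 CPM over the 16 groups, a description in which groups share tissue. For Fgf21 they were Akr1b7 (r = 0.743), Ifi44 (0.677) and Epn3 (0.660), for Klb Slc25a1 (0.993), Sfxn1 and Stk3 (0.991 each), and for Fgfr1 Fam107a and Lgi4 (0.995 each) and Sema3b (0.994). For Fgfr2 they were Iah1 (0.998), Cand1 (0.994) and Arl6ip1 (0.993), for Fgfr3 Slc25a47 (0.995), Lin7a and Slc35d1 (0.994 each), and for Fgfr4 Slc38a3 (0.994), Vamp7 (0.993) and B4galnt3 (0.992). Over the 10 WT and UCP1 KO libraries of BAT, which fall into 2 clusters by genotype, log2 CPM of Fgf21 ran most closely with Mthfd2 (0.994), Cth (0.991), Csnk1a1, Slc7a5 and Eif4g3 (0.986 each). Cth encodes an enzyme of cysteine synthesis and Slc7a5 a transporter of large amino acids. Over the 10 such iWAT libraries the 5 were Entpd5 (0.994), Ssfa2 (0.989), Ppcs (0.988), Pdhb and Eno1 (0.986 each).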

How the data were processed

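Paired-end poly(A) RNA-seq libraries were aligned by the authors to mm10 with STAR in a two-pass run, and the deposited values are whole-number counts per gene made with HTSeq-count on the UCSC known genes. The kit was stranded, the strand option of counting is not given in the sources used here, and Fgfr1 overlaps the antisense gene Gm16159. The 1 row naming no gene (at most 3.42e-05% of a library's counts) was left out. Genotypes and tissues came from the labels. Per tissue, genes were kept if their highest count was above 15, their counts summed to more than 75 and no more than 10 libraries were at 0 (for all 80 libraries, at most 40 at 0, members always kept). Tests used edgeR 4.0.16 (limma 3.58.1, R 4.3.3): TMM factors, the quasi-likelihood F test over the 4 genotypes, and Benjamini-Hochberg adjustment over all genes, called under 0.01. Each SE was derived from the log2 fold change and the F value. Single values were tested by exact two-sided permutation. Folds against groups at 0 used a floor of 3 counts per library, and floors cover counting error only. DESeq2 1.42.0, other scalings, filters, subsets and covariates were alternatives. Lengths, strands and overlaps came from GENCODE vM21 (GRCm38), and gene positions and promoters from RefSeq (GRCm38.p6; 5 of 6 members had a promoter). GENCODE's Fgfr2 includes transcripts reaching far upstream of RefSeq's, which lengthens its exons and lowers its level per length. Through them it spans other counted genes on both strands, such as Ate1 and Plekha1, which RefSeq's Fgfr2 does not overlap. Scripts were tested on simulated data.

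Named genes were the members, up to 4 called genes of each list per comparison with the smallest adjusted p (2 rises and 2 falls where both exist), the 3 genes most like each member (5 for Fgf21 within a depot), with unnamed gene models passed over, the genes within 100 kb of Fgf21, and Ucp1 and Fgf12. Adipoq was named with its values known. The members, lists and tests were chosen with earlier results of these data known. No 2 libraries of a tissue were identical.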

Additional observations from a re-analysis of the deposited data

Results flagged for a closer look

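The gap between the lowest or the highest library and its nearest, divided by the range of the group, was set against Dixon's critical value. It exceeded that value in 2 of the 85 groups of member values tested, each time at the low end. Chance alone marks about 1 in 20 groups. Fgfr1 in muscle was 70.4 CPM in UCP1 KO replicate 1 and 90.3 to 95.1 CPM in the other 4 libraries (gap over range 0.827). Fgfr3 in BAT was 2.40 CPM in WT replicate 1 and 4.11 to 4.58 CPM in the other 4 (0.831).

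The effect of UCP1 loss on Fgf21 differed between tissues by a test of the difference itself (edgeR): by 6.35 on the log2 scale between BAT and liver, by 5.36 between BAT and muscle, and by 5.18 between iWAT and liver.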

How the results depend on the processing

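No paired analysis was possible because the labels give no replicate numbers (those used here follow deposit order) and link no libraries to the same mouse. For members called in BAT, dKO against FGF21 KO gave 1 in the fit reported, 2 at an adjusted p of 0.05 and 0 with library totals only, and the interaction gave 0 and, with DESeq2, 1 (Fgf21, fixed by its deletion). In iWAT, UCP1 KO against WT gave 1, then 2 with the lymph node score as covariate (862 of all genes called against 106), 0 with only the compared genotypes, 0 at a skeletal muscle score of at most 4 (chosen after seeing the data; 0 of all genes called) and 0 to 1 with each library left out. In iWAT, UCP1 KO against dKO gave 1, then 0 with only the compared genotypes, 0 at a lymph node score of at most 4 and 0 at a skeletal muscle score of at most 4 (again 0 of all genes). The UCP1 KO effect differed between iWAT and muscle in 0 members, 1 at an adjusted p of 0.05 and 1 with DESeq2. WT BAT against iWAT gave 1 to 3 members with each library left out (2 in the fit reported; 1 without iWAT replicate 5 or BAT replicate 5).

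With longest transcripts the receptor shares were 6.15% (Fgfr2, iWAT), 29.2% (Fgfr2, liver), 30.1% (Fgfr4, liver), 91.1% (Fgfr1, muscle), 5.53% (Fgfr3, muscle) and 3.09% (Fgfr4, muscle). With library totals only, Frs2 in BAT of UCP1 KO against WT turned to 0.0669 and Fgfr3 in WT iWAT against muscle to 0.41. The cause was not tested. Of the log2 values recomputed, 726 kept direction and side of the threshold, 70 fell below it, 9 came past it and 2 reversed. Genes most like a member by Spearman's rho shared 0 with the lists by Pearson's r, except 1 of 5 for Fgf21 in iWAT. Over all genes DESeq2 called more than edgeR: 56 against 10 for UCP1 KO against dKO in BAT, 597 against 106 and 535 against 81 for UCP1 KO against WT and dKO in iWAT, and 112 against 10 for UCP1 KO against WT in liver. Fgf21 in muscle and Fgfr4 in BAT had no more than 10 and 14 counts per library, which limits the precision of their values.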

Other observations

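Of 17 counted genes within 100 kb of Fgf21, 12 were tested in BAT. UCP1 KO against WT called 2 of them (Fut1 and Ppp1r15a, both higher; 25.2% of all genes), dKO against FGF21 KO 4 (Ppp1r15a and Mamstr higher, Hsd17b14 and Bcat2 lower; 13.5%) and UCP1 KO against dKO 1 (0.0636%). In iWAT 1 of 16 was called in UCP1 KO against dKO (0.466%). Fut1, a fucosyltransferase gene at chr7:45617289-45621059 on the other strand (GENCODE vM21, GRCm38), starts 1799 bp from the Fgf21 start. In BAT it had 0 to 1 counts per WT library and 16 to 44 per UCP1 KO library, with FGF21 KO (4 to 8) and dKO (5 to 12) between. UCP1 KO exceeded WT at least 6.22-fold (adjusted p = 1.16e-06, edgeR), and FGF21 KO stood above WT without passing (adjusted p = 0.0856). In liver, WT libraries had 4 to 11 Fut1 counts, UCP1 KO libraries 6 to 11, and 0 were found in all 10 FGF21 KO and dKO libraries (exact permutation p = 0.00794 for each pair, the smallest that 5 against 5 allow). In iWAT, FGF21 KO had 7 to 52 counts against 0 to 4 in WT (adjusted p = 0.115). Counts this low carry wide error, and whether reads of one gene were counted for its neighbour was not tested.

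Rasip1, which encodes a RAS-interacting protein of endothelial cells and starts 11998 bp from Fgf21, was lower in FGF21 KO than in WT in all 4 tissues, by 0.55 in BAT (adjusted p = 0.0779), 1.11 in iWAT (0.115), 0.55 in liver (0.110) and 0.64 in muscle (0.0245, edgeR) on the log2 scale, and passed in none. In BAT the means were 30.7 CPM in WT and 28.1 in UCP1 KO, and 21.0 in FGF21 KO and 19.6 in dKO. In muscle they were 8.82 and 9.10, and 5.66 and 5.91. Further out, Hsd17b14 was higher in UCP1 KO than in dKO in BAT (1.95, adjusted p = 0.00746) and lower in dKO than in FGF21 KO (-1.71, 0.000724), and Car11 was higher in UCP1 KO than in dKO in iWAT (1.28, 0.00855).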
